A study of Mus musculus with 10 samples.

Results

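Fibroblasts make and organise the extracellular matrix, and 35 of their contractile, identity and non-collagen matrix genes were followed here in macrophages sorted by efferocytosis, the engulfment of dying cells. The members were taken by gene symbol after mapping Ensembl identifiers to mouse symbols, and all 35 were found among the 55414 identifiers of each count table. By role they comprised 5 contractile genes, 9 identity genes and 21 matrix genes (4 proteoglycans, 7 fibre proteins, 7 matricellular proteins and 3 enzymes or chaperones). The study sorted macrophages into Eff+ cells, positive for engulfed material, and Eff- cells, in a wound model and in a culture model. The wound libraries (3 Eff+ and 3 Eff-) were of macrophages from skin wounds taken at day 3 in LysMCreER/mTmG mice, all of which had tamoxifen for 6 days. In these mice a tamoxifen-inducible Cre is driven from the lysozyme M locus, which is active in macrophages and also in neutrophils, and cells with active Cre exchange membrane tdTomato for membrane GFP. The culture libraries (2 Eff+ and 2 Eff-) were of wild-type bone marrow derived macrophages grown in GM-CSF for 7 days, and apoptotic fibroblasts, given for 12 h, were the cells fed. All 4 culture libraries are labelled with that treatment, but the column names of the Eff- libraries carry the letters NOAC, so whether those cells met apoptotic cells is unclear. The labels do not state age, sex or whether each replicate is its own animal or culture. The p-values therefore cover only the spread among these libraries, which may be technical.

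Myofibroblasts are fibroblasts that have taken up smooth muscle actin and other contractile proteins, and in healing skin they pull the wound edges together. Fibroblasts are recognised by platelet-derived growth factor receptors and the surface proteins Thy1 and Fap, and lay down small proteoglycans, elastic microfibrils and matricellular proteins around collagen. Fibronectin (Fn1), vimentin (Vim) and podoplanin (Pdpn) are shared with other cells, and macrophages make all 3.

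Total counts per library ranged from 39735437 to 57308823 in the wound and from 17622740 to 27261880 in culture. All 12 genes of a macrophage marker list had counts in every library, and the list took 1.89 to 2.85% of counts in the wound and 0.656 to 6.70% in culture. A list of 16 neutrophil genes made up 3.41, 3.09 and 2.72% of the wound Eff+ counts and 0.889, 0.493 and 0.818% of the Eff- counts, and 14 of the 16 rose by edgeR. In culture the libraries numbered 1 stood apart, with counts in 35649 (Eff+) and 44836 (Eff-) genes against 19649 and 18171 in those numbered 2. As these are bulk libraries, fewer cells of a type and less RNA per cell cannot be told apart, nor can RNA made by the macrophage and RNA of engulfed or co-sorted cells.

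The promoters of 3 contractile members are shown because serum response factor, a regulator of smooth muscle genes, binds CArG boxes in promoters of this kind, and because Acta2 was the member called below. RefSeq windows on GRCm38.p6, from 250 bases before to 50 bases after the start, existed for 22 of the 35 members. They are given 5′ to 3′ on the gene's strand, with matches to the searched motifs in capitals. The windows lie at chr19:34255324-34255623 (minus strand, Acta2), chr2:156775214-156775513 (plus strand, Myl9) and chr9:22099003-22099302 (plus strand, Cnn1).
Acta2: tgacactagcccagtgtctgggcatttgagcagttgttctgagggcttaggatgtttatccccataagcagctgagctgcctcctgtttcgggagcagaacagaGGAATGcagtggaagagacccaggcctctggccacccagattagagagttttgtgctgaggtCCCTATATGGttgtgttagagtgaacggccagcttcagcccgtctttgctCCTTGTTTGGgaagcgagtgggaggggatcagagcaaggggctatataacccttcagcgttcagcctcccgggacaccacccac
Myl9: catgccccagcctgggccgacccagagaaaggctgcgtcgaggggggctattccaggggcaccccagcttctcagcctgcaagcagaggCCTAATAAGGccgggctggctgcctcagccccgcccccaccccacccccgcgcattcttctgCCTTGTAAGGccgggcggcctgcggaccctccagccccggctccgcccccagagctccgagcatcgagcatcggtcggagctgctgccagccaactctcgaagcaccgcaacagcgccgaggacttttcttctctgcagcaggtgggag
Cnn1: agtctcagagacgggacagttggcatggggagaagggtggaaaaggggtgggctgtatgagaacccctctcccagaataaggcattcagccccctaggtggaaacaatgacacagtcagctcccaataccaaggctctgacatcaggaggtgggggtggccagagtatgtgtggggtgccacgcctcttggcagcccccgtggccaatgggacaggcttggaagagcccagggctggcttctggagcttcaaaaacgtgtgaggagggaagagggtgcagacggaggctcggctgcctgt
The Acta2 window holds an MCAT motif (GGAATG) beginning 146 bases before the start, and CArG-like letters beginning 84 and 34 bases before it. The CArG-like form, a CArG box in which 1 inner letter may be C or G, was added after the Acta2 window had been seen, and it includes the CArG box itself. Myl9 has a CArG box 161 bases before the start and a CArG-like match 99 bases before it, whereas the Cnn1 window has no match to any motif searched. Both strands were searched in every window. The CArG box was present in 1 of 22 members against 1.64% of 32544 RefSeq promoter windows, and the CArG-like form in 3 of 22 (Acta2, Myl9 and Fbln2) against 9.96%. MCAT letters were present in 2 of 22 members (14.6% of all windows), TATAAA in 6 of 22 (13.6%) and the AP-1 letters TGANTCA in 0 of 22 (7.79%). A match describes letters only, and binding was not measured.

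In the wound, Acta2, the smooth muscle actin that defines myofibroblasts, was the 1 member of 33 tested whose change passed the threshold, and it was higher in Eff+ macrophages. Over all 14908 genes tested, 7.39% were called higher and 3.79% lower by edgeR at an adjusted p under 0.05, so 1 call among 33 is no more than the background. By edgeR's unadjusted p under 0.05 the members numbered 11 of 33, beside 29.9% of all genes, and DESeq2 called 10 of 33, beside 21.1% of all genes in either direction. Acta2 (chr19:34218490-34232990, GRCm39, minus strand) was at 74.4, 45.6 and 65.2 CPM (counts scaled to library size) in Eff+ libraries 1, 2 and 3, and at 15.9, 9.69 and 12.7 CPM in Eff- libraries 1, 2 and 3. Every Eff+ library lay above every Eff- library, and the lowest Eff+ value was from library 2. The means were 61.8 ± 14.7 CPM (SD, n = 3) and 12.8 ± 3.11 CPM (SD, n = 3), a 4.84-fold difference with a log2 fold change of 2.27 (SE 0.26, edgeR adjusted p = 0.0097). Without Eff+ library 2 the log2 fold change was 2.45 but the adjusted p was 0.058, which was the smallest of any gene in that fit, so every wound call by edgeR given here is lost without that library (0 of 15804 genes called, 3260 at an unadjusted p under 0.05). Without both libraries numbered 2 it was 2.29 (edgeR adjusted p = 0.20).

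The other contractile genes were far scarcer than Acta2, and edgeR called 0 of them, while Tpm2 had an unadjusted p under 0.05 and was called by DESeq2 (adjusted p = 0.041). Myl9, a regulatory light chain of smooth muscle myosin, was at 6.01, 3.51 and 5.86 CPM in Eff+ and at 0.675, 5.02 and 0.734 CPM in Eff-. Only Eff- library 2 lay inside the Eff+ range, and the log2 fold change was 1.25 (SE 0.78, edgeR adjusted p = 0.33). Tpm2, a tropomyosin that lies along actin filaments, was at 2.08, 5.14 and 11.3 CPM in Eff+ against 0.556, 2.86 and 1.74 CPM in Eff- (log2 fold change 1.85, SE 0.75, edgeR adjusted p = 0.14). Cnn1, the calponin of smooth muscle, was counted 0, 40 and 16 times in Eff+ libraries 1, 2 and 3 and 0 times in each Eff- library, where a count of 0 allows up to 0.0688 CPM. Tagln, another actin-binding protein of smooth muscle, had 5, 10 and 20 counts in Eff+ against 0, 9 and 3 in Eff-. Both were too low to be tested. Of Tagln's annotated exon bases 67.9% overlap genes on the opposite strand, and the counting had no strand option, so its low counts are uncertain. Acta2 shares no exon base with another gene.

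Acta2 has close actin relatives, whose counts were checked because near-identical reads may be shared. Acta1, the skeletal muscle actin, was at 7.96, 30.8 and 34.6 CPM in Eff+ and at 0.675, 11.9 and 2.52 CPM in Eff-, and was not called (log2 fold change 2.27, SE 0.95, edgeR adjusted p = 0.16). Its order over the Eff+ libraries differed from that of Acta2, which was highest in library 1, where Acta1 was lowest. The fitted log2 fold changes of Acta1 and Acta2 were equal, and whether reads were shared between them was not tested. The cardiac actin Actc1 and the enteric actin Actg2 were at no more than 2.04 CPM in any wound library. The cytoplasmic actin Actg1 rose (log2 fold change 0.87, SE 0.23, edgeR adjusted p = 0.05 after rounding, just under the threshold), but lost its call with relative log expression scaling (0.91, adjusted p = 0.052), with library totals only (0.48, adjusted p = 0.13) and without any 1 of the 6 libraries (adjusted p from 0.056 to 0.18). Actb was not called (0.32, SE 0.21, adjusted p = 0.35). Among 17 further contractile genes fixed as a list, 14 were tested, and Actn1, the cytoplasmic alpha-actinin, was the 1 called by edgeR (log2 fold change 1.40, SE 0.18, edgeR adjusted p = 0.0097). The median of that list was 0.65, with 7 genes at an unadjusted p under 0.05 and 4 called by DESeq2 (Actn1, Des and Cald1 higher, Mrtfb lower).

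**Figure D1:**
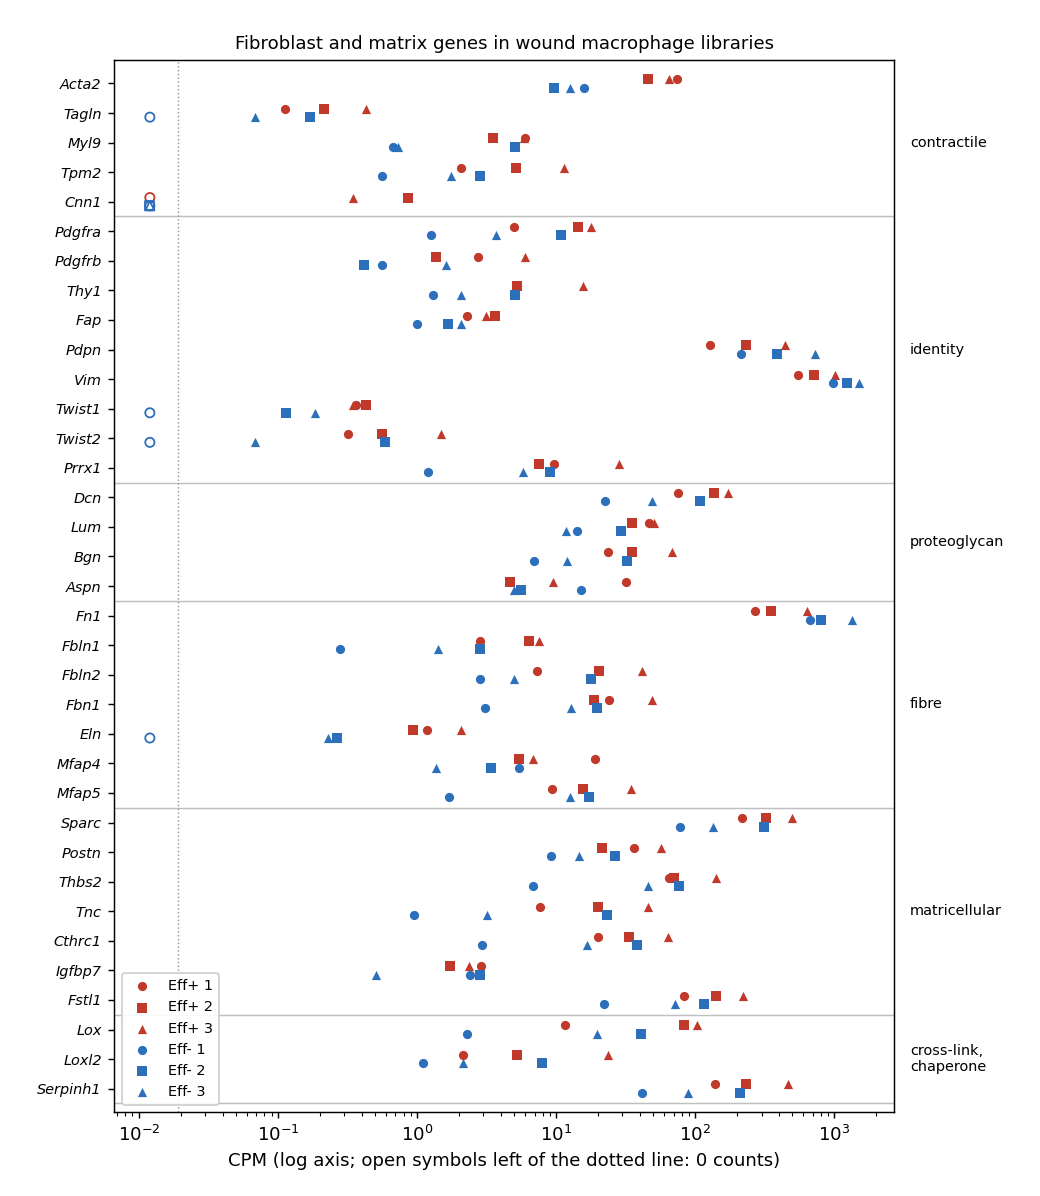
CPM of the 35 genes in the 6 wound libraries on a log axis, grouped by role, with Eff+ in red, Eff- in blue and the marker shape giving the library number. For most genes Eff+ 3 (red triangle) is rightmost and Eff- 1 (blue circle) leftmost. The Eff- means are higher for Fn1, Vim and Pdpn, though the groups overlap for Vim and Pdpn.

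The 9 fibroblast identity genes split in direction in the wound, with 7 at higher and 2 at lower fitted levels in Eff+, and edgeR called 0 of them. At an unadjusted p under 0.05 there were 3 (Pdgfrb, Thy1 and Vim), and DESeq2 called 2 (Pdgfrb and Thy1). Both counts are near the shares over all genes given above. Pdgfra, the receptor most used to mark fibroblasts, was at 4.996, 14.3 and 17.7 CPM in Eff+ and at 1.25, 10.9 and 3.69 CPM in Eff- (log2 fold change 1.22, SE 0.75, edgeR adjusted p = 0.32). Pdgfrb, the receptor shared with pericytes, was at 2.74, 1.37 and 5.95 CPM in Eff+ against 0.556, 0.419 and 1.63 CPM in Eff- (1.95, SE 0.74, adjusted p = 0.13). The groups overlapped for both receptors. Thy1, a glycoprotein of the fibroblast surface, was at 5.25, 5.23 and 15.7 CPM in Eff+ and at 1.31, 5.06 and 2.07 CPM in Eff- (1.63, SE 0.63, adjusted p = 0.13). Its groups did not overlap, but Eff- library 2 lay just below Eff+ libraries 1 and 2. Prrx1, a transcription factor of limb and skin fibroblasts, was at 9.63, 7.54 and 28.2 CPM in Eff+ and at 1.19, 8.98 and 5.78 CPM in Eff-, with Eff- library 2 inside the Eff+ range (1.51, SE 0.74, adjusted p = 0.22).

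Vim and Pdpn, which macrophages share, lay on the other side. Vim, the intermediate filament of mesenchymal and myeloid cells, was at 547.2, 719.3 and 1016 CPM in Eff+ and at 979.7, 1241 and 1505 CPM in Eff- (log2 fold change -0.71, SE 0.27, edgeR adjusted p = 0.13). The highest Eff+ library just exceeded the lowest Eff- library. Pdpn, a membrane glycoprotein of fibroblasts, lymphatic cells and inflammatory macrophages, was at 127.5, 233.1 and 442.6 CPM in Eff+ against 213.7, 384.8 and 725.7 CPM in Eff-, and its groups overlapped (-0.72, SE 0.53, adjusted p = 0.41). Within numbers 1, 2 and 3 the log2 ratios of Eff+ to Eff- were -0.74, -0.72 and -0.71 for Pdpn. For Vim they were -0.84, -0.79 and -0.57. These ratios add 0.5 CPM to each value, and no label ties same-numbered libraries. The rest of the group, Fap, Twist1 and Twist2, had positive fold changes between 0.94 and 1.91 and did not pass the test. Twist1 and Twist2 were at most 1.49 CPM in any wound library. Of Twist2's exon bases 46.5% overlap a gene on the opposite strand.

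Of the 21 matrix genes 20 had positive log2 fold changes in the wound, from 0.27 (Igfbp7) to 3.06 (Eln), and Fn1 had a negative one. None was called by edgeR, 6 had an unadjusted p under 0.05 (Lum, Fn1, Fbln1, Eln, Mfap4 and Postn), and DESeq2 called those same 6. These counts of 6 in 21 lie near the shares over all genes, 29.9 and 21.1%. The shared sign is not 20 separate observations, because the same libraries set it. Leaving out Fn1, Vim and Pdpn, Eff+ library 3 held the highest value for 24 of 32 members and Eff- library 1 the lowest for 25 of 32. The median log2 fold change of the 33 tested members was 1.30, beside -0.03 over all genes tested. It was 0.82 without Eff+ library 3, 1.98 without Eff- library 2 and 2.08 without both libraries numbered 2. Scaling by library totals only, which moved the median of all genes to -0.42, gave a members' median of 0.91. With or without that change of scaling, the signs of Fn1, Vim and Pdpn stayed negative.

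**Figure D2:**
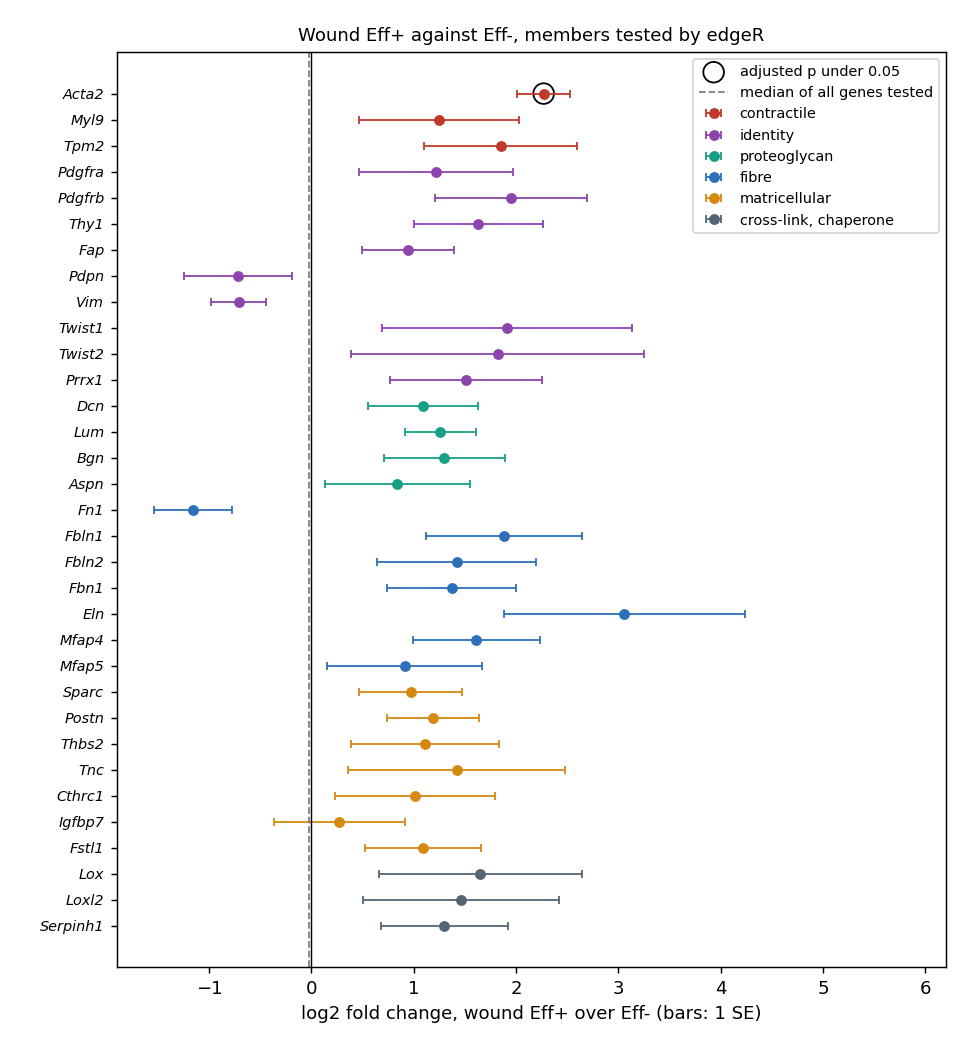
Log2 fold change (Eff+ over Eff-) with 1 SE for the 33 members tested in the wound, coloured by role, with zero as a solid line and the median of all genes tested as a dashed line. Acta2 carries the circle for an adjusted p under 0.05, and 3 members (Fn1, Vim and Pdpn) lie left of zero.

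Among the proteoglycans, Lum (lumican, which spaces collagen fibrils) came nearest to a call. It was at 46.4, 35.1 and 51.0 CPM in Eff+ and at 14.1, 29.2 and 11.8 CPM in Eff-, with no overlap (log2 fold change 1.26, SE 0.35, edgeR adjusted p = 0.056). Of the 14 alternatives 6 put it past the threshold, and none turned its sign. Dcn (decorin, which binds collagen fibrils and TGF-beta) was at 75.2, 135.8 and 171.9 CPM in Eff+ against 22.6, 108.1 and 48.8 CPM in Eff-. Eff- library 2 again fell inside the Eff+ range (1.09, SE 0.54, adjusted p = 0.22). Bgn (biglycan) had a log2 fold change of 1.30 and Aspn (asporin) of 0.84, and neither passed.

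Fn1, the adhesive glycoprotein of provisional wound matrix, was the 1 member whose Eff+ libraries all lay below the Eff- libraries. It was at 268.7, 353.3 and 639.1 CPM in Eff+ and at 666.3, 804.2 and 1347 CPM in Eff-, 2.23-fold higher in Eff- (log2 fold change -1.16, SE 0.38, edgeR adjusted p = 0.088). Of all genes tested 18.1% had every Eff+ library below every Eff- library, and 18.7% had every one above. Of the tested members 7 lay wholly above (Acta2, Thy1, Fap, Twist1, Lum, Eln and Mfap4), so the count above is close to the background share. Fbn1, the fibrillin of elastic microfibrils, was at 24.0, 18.8 and 48.9 CPM in Eff+ against 3.06, 19.7 and 12.8 CPM in Eff- (1.37, SE 0.63, adjusted p = 0.19), and 20.1% of its exon bases overlap another gene. Fbln2, a fibulin that links fibronectin and elastic fibres, was at 7.33, 20.5 and 41.2 CPM against 2.86, 17.9 and 4.96 CPM (1.42, SE 0.78, adjusted p = 0.27). Both overlapped through Eff- library 2. Fbln1, Eln, Mfap4 and Mfap5 had log2 fold changes between 0.91 (Mfap5) and 3.06 (Eln), and Eln, the elastin precursor, was no higher than 2.07 CPM in any library.

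The matricellular proteins, which modulate cell and matrix contacts rather than build fibres, gave 7 positive fold changes and 0 calls by edgeR, with 1 of 7 (Postn) at an unadjusted p under 0.05 and called by DESeq2. Sparc (osteonectin) was the most abundant of them per exon length in the wound. Its CPM values were 218.9, 320.4 and 492.8 in Eff+ and 77.8, 312.5 and 135.2 in Eff- (log2 fold change 0.97, SE 0.50, edgeR adjusted p = 0.24). Postn (periostin, induced in healing dermis) was at 36.4, 21.3 and 56.6 CPM in Eff+ against 9.26, 26.4 and 14.5 CPM in Eff- (1.19, SE 0.45, adjusted p = 0.13). Thbs2 (thrombospondin 2, a regulator of fibril assembly) was at 64.7, 70.6 and 142.1 CPM against 6.83, 76.3 and 45.6 CPM (1.11, SE 0.72, adjusted p = 0.35). Tnc (tenascin C, a wound-edge glycoprotein) was at 7.62, 20.1 and 45.4 CPM against 0.954, 23.2 and 3.21 CPM (1.42, SE 1.06, adjusted p = 0.42). In all 4 genes Eff- library 2 lay within the Eff+ range. Cthrc1, Igfbp7 and Fstl1 had log2 fold changes of 1.01, 0.27 and 1.09.

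Lox, the copper enzyme that cross-links collagen and elastin, was at 11.5, 83.6 and 102.4 CPM in Eff+ and at 2.29, 40.9 and 19.8 CPM in Eff- (log2 fold change 1.65, SE 0.99, edgeR adjusted p = 0.31). Serpinh1 (HSP47, the chaperone of procollagen folding) was at 138.3, 230.8 and 467.2 CPM in Eff+ against 41.2, 209.6 and 89.4 CPM in Eff- (1.30, SE 0.62, adjusted p = 0.21). Loxl2, a second cross-linking enzyme, had a log2 fold change of 1.46 and did not pass.

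The make-up of the matrix genes also differed between libraries of the same group. Per exon base, the ratio of Lox to Dcn was 0.187 in Eff+ library 1 against 0.752 and 0.728 in Eff+ libraries 2 and 3, and 0.124 in Eff- library 1 against 0.462 and 0.494 in Eff- libraries 2 and 3. Aspn ran the other way, with a ratio to Dcn of 1.05 in Eff+ 1 and 1.67 in Eff- 1, against 0.0849 to 0.254 in the other 4 libraries. The libraries numbered 1 were thus low in Lox and high in Aspn relative to Dcn in both groups. The Acta2 to Dcn ratio ranged from 0.238 (Eff- 2) to 2.63 (Eff+ 1), and the groups overlapped. Sparc to Dcn varied less, from 3.63 to 5.32 over all 6 libraries.

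**Figure D3:**
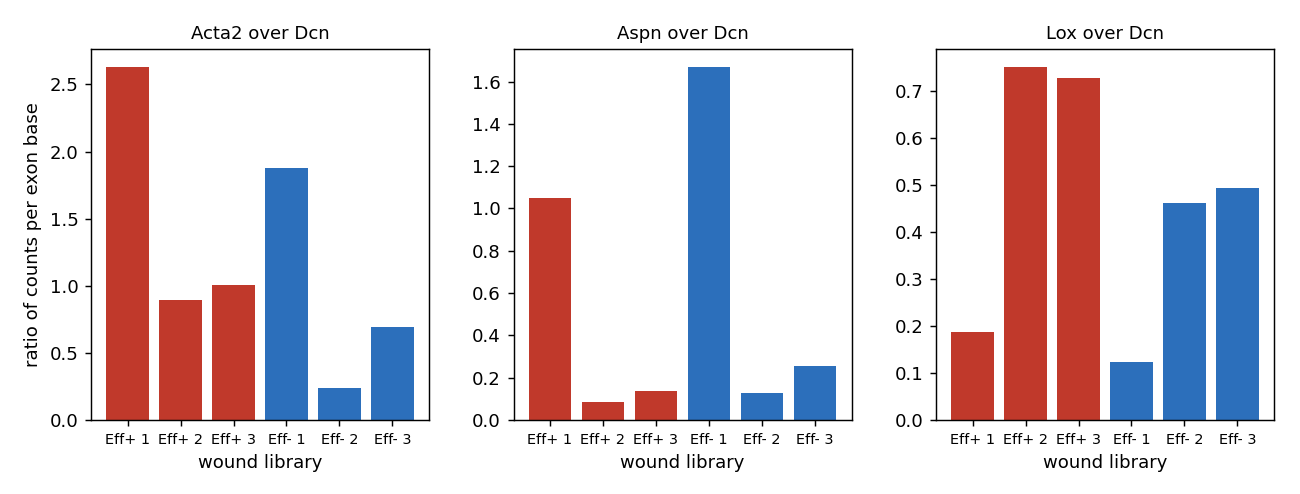
Ratio of counts per exon base of Acta2, Aspn and Lox to Dcn in each wound library, as bars from 0, with Eff+ in red and Eff- in blue. Aspn is high and Lox low relative to Dcn in both libraries numbered 1.

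Ordered per kilobase of exon, the members with the highest mean level in wound Eff+ were Vim (160.4 RPKM, which is CPM per kilobase of exon), Pdpn (147.3), Serpinh1 (114.1) and Sparc (90.8), with Fn1 at 36.0, Acta2 at 28.1 and Dcn at 21.9 RPKM. In Eff- the order was Vim (261.8 RPKM), Pdpn (242.9), Fn1 (80.4), Serpinh1 (46.4) and Sparc (46.2), with Acta2 at 5.81 RPKM. Serpinh1 and Sparc in Eff- did not differ beyond their spread. Fn1, Vim and Pdpn together held 48.6 to 50.2% of the members' counts in the Eff+ libraries and 68.2 to 87.7% in Eff-.

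Summed by role, the contractile genes took 0.00733, 0.00451 and 0.00765% of all counts in Eff+ and 0.00197, 0.00211 and 0.00167% in Eff-, so the groups did not overlap. Acta2 made up most of that sum. The 20 matrix genes without Fn1 took 0.0733, 0.0983 and 0.189% in Eff+ against 0.0274, 0.130 and 0.0560% in Eff-. The 7 identity genes without Vim and Pdpn took 0.00227, 0.00269 and 0.00667% against 0.000609, 0.00331 and 0.00170%. In both of these sums Eff- library 2 lay within the Eff+ range. The exclusions were chosen after the values were seen.

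Few genes related to the members passed edgeR's test, and DESeq2 called more. Of 8 collagen chains, all had positive log2 fold changes (median 1.32) and edgeR called 1, Col6a3 (2.07, SE 0.50, edgeR adjusted p = 0.038). That call is lost with limma-voom (1.87, adjusted p = 0.062) and with library totals only (1.70, adjusted p = 0.052). It is also lost without any 1 library other than Eff+ 1 (edgeR adjusted p from 0.079 to 0.11). The lowest of those fold changes was 1.33, without Eff+ library 3. Of the 8 chains 4 had an unadjusted p under 0.05, and DESeq2 called 5 higher (Col5a1, Col5a2, Col6a1, Col6a2 and Col6a3). Of 25 other matrix genes, 22 were tested, 6 had an unadjusted p under 0.05, edgeR called 2 and DESeq2 5 (Thbs1, Nid2, Spp1 and Mfap2 higher, Vcan lower). Thbs1, an activator of latent TGF-beta, rose (0.92, SE 0.22, edgeR adjusted p = 0.036), and Vcan, the large proteoglycan versican, fell (-0.97, SE 0.20, adjusted p = 0.025). With library totals only Thbs1 was not called (0.54, adjusted p = 0.079). Thbs1 also lost its call without Eff+ 2, Eff+ 3, Eff- 1 or Eff- 2 (edgeR adjusted p from 0.085 to 0.13). Vcan lost its call without any 1 library other than Eff+ 3 (edgeR adjusted p from 0.053 to 0.12). Of 18 TGF-beta signalling genes, 17 were tested with a median of 0.13, and Skil, a repressor of SMAD signalling, was the 1 called by edgeR (0.83, SE 0.18, edgeR adjusted p = 0.027). It was not called with library totals only (0.44, adjusted p = 0.078), nor without Eff+ library 2 or any 1 Eff- library (edgeR adjusted p from 0.052 to 0.11). Of these genes 3 had an unadjusted p under 0.05, and DESeq2 called Skil and Smad3. Genes named from DESeq2 alone, here and for other lists, were chosen after their values were seen.

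Markers of other cells were read beside these values. Smooth muscle and pericyte genes gave 0 calls by edgeR among 5 tested of 8, with 1 (Des, desmin) at an unadjusted p under 0.05 and called by DESeq2, and the list's summed level was 28.1, 6.02 and 11.5 CPM in Eff+ against 2.44, 32.4 and 1.15 CPM in Eff-. Of its 8 genes 0 to 1 were at 0 in the Eff+ libraries and 1 to 5 in the Eff- libraries. The list's highest sum was thus in Eff- library 2. In that library Acta2 was lowest, while Myl9, at 5.02 CPM, was highest among the Eff- libraries. Neutrophil genes such as S100a8, S100a9 and Ly6g rose (log2 fold changes 2.62, 2.64 and 2.71). So did 3 of 5 tested keratinocyte genes, Krt14, Krt5 and Perp, and Sfn was also called by DESeq2. Perp lost its call without any 1 of the 6 libraries (edgeR adjusted p from 0.056 to 0.12). Krt5 lost it without Eff+ 2 or any 1 Eff- library (edgeR adjusted p from 0.052 to 0.096). Neither Krt5 (adjusted p = 0.13) nor Krt14 (adjusted p = 0.058) was called with limma-voom. The keratinocyte list of 12 summed to 47.8, 73.9 and 39.4 CPM in Eff+ against 5.25, 12.5 and 17.8 CPM in Eff-, with 2 to 5 and 8 to 10 of its genes at 0. Among 12 macrophage genes Cd14 rose, and C1qa, C1qb, Mrc1 and Adgre1 fell, while DESeq2 called 1 higher and 8 lower. Cd14 lost its call without Eff+ 2, Eff- 1 or Eff- 2 (edgeR adjusted p from 0.074 to 0.092). C1qa lost its call without Eff+ 2 or Eff- 2 (edgeR adjusted p = 0.073 and 0.062). C1qb and Mrc1 lost theirs without Eff+ 2, Eff+ 3, Eff- 1 or Eff- 2 (edgeR adjusted p from 0.054 to 0.13). Endothelial genes gave 0 calls by edgeR among 10 tested, with 3 (Cdh5, Kdr and Esam) at an unadjusted p under 0.05 and 2 of these (Cdh5 and Kdr) called lower by DESeq2. They summed to 39.0 to 44.3 CPM in Eff+ against 51.0 to 73.7 CPM in Eff-, with 1 to 2 and 0 to 4 of 12 at 0. Of 12 skeletal muscle and adipocyte genes 8 were tested and Mylpf, a fast-muscle myosin light chain, rose (1.89, SE 0.31, edgeR adjusted p = 0.013). Mylpf lost its call without Eff+ 2 or Eff- 2 (edgeR adjusted p = 0.078 and 0.062). In that list 5 genes had an unadjusted p under 0.05, and DESeq2 called 4 (Mylpf, Ckm and Cfd higher, Fabp4 lower). Of 8 T and NK cell genes and 6 mast cell genes, edgeR and DESeq2 each called 0, and 0 had an unadjusted p under 0.05. The part of these cells in the values of Acta2 and the matrix genes was not tested.

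In culture, where fibroblasts were the cells fed, 26 of 35 members were tested and 0 were called. At an unadjusted p under 0.05 there were 0 by edgeR, beside 0.774% of all genes, and 1 by DESeq2 (Pdpn), beside 1.58%. After adjustment DESeq2 called 0 members and 0.0135% of all genes. Of all 14867 genes tested 0.0% were called by edgeR, so the members do not stand apart in this. What the culture data did show was a contrast between libraries. Most of the contractile, matricellular and chaperone genes were present mainly in the libraries numbered 2, and most in Eff+ 2. Among the Eff- libraries, however, Postn and Cthrc1 were higher in library 1 than in library 2, and Tagln was level.

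Acta2 was at 5.39 and 66.6 CPM in culture Eff+ libraries 1 and 2 and at 5.12 and 22.9 CPM in Eff- libraries 1 and 2. The libraries numbered 1 were level, and Eff+ 2 was highest (log2 fold change 1.36, SE 1.30, edgeR adjusted p = 1.0). Cnn1, at 0 in wound Eff-, was at 0.193 and 6.06 CPM in Eff+ against 0.359 and 1.04 CPM in Eff-. Myl9 was at 0.154 and 12.1 CPM in Eff+ and at 0.180 and 1.14 CPM in Eff-. Tpm2 followed the same order, at 0.0385 and 7.85 CPM against 0.135 and 1.45 CPM. Tagln had 5 to 16 counts per library. The 5 contractile genes took 0.000627 and 0.00823% of counts in Eff+ against 0.000777 and 0.00226% in Eff-.

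Sparc was at 0.269 and 50.7 CPM in culture Eff+ and at 0.628 and 10.3 CPM in Eff-. Serpinh1 was at 0.577 and 78.8 CPM against 0.539 and 18.4 CPM, and Lox at 2.54 and 44.2 CPM against 0.853 and 11.8 CPM. Tnc was at 0.269 and 17.8 CPM against 1.17 and 2.23 CPM. For each of these 4 genes Eff+ 2 was highest and Eff- 2 next. Fbln2 (0.308 and 21.4 against 0.628 and 5.82 CPM), Postn (0.693 and 8.68 against 1.57 and 1.25 CPM) and Thbs2 (0.193 and 7.52 against 1.03 and 2.96 CPM) were also highest in Eff+ 2. Bgn, Igfbp7, Fstl1, Loxl2 and Cthrc1 were highest there as well. Without Fn1, Vim and Pdpn, Eff+ library 2 held the highest value for 21 of 32 members.

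Several defining fibroblast genes were scarce in all 4 culture libraries. Collagen chains were not uniformly so: the list of 8 summed to 4.70 and 174.6 CPM in Eff+ and to 14.2 and 34.9 CPM in Eff-, and 0 were called. Dcn was at 1.12 and 2.41 CPM in Eff+ and at 1.62 and 0.312 CPM in Eff-, and Lum had 1 to 10 counts per library. Pdgfra was at 0.193 and 1.33 CPM in Eff+ and at 1.71 and 1.77 CPM in Eff-, below in both. Pdgfrb was at 0.346 and 1.204 CPM against 0.808 and 0.779 CPM, Prrx1 at 0.193 and 1.79 CPM against 1.21 and 0.416 CPM, and Fbn1 at 0.423 and 2.87 CPM against 2.07 and 0.935 CPM. Thy1 was at 2.35 and 0 CPM in Eff+ and at 3.95 and 0.260 CPM in Eff-, so that it was found mainly in the libraries numbered 1. Fap, Aspn, Eln and Mfap4 had counts only in the libraries numbered 1, with at most 30. Those libraries had counts in 35649 (Eff+) and 44836 (Eff-) genes, against 19649 and 18171 in those numbered 2, so low counts there are not particular to fibroblast genes. Acta2 stood at 8.42 to 195 times Dcn per exon base in the culture libraries, against 0.238 to 2.63 times in the wound, though the Dcn counts behind the culture ratios were 6 to 58.

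**Figure D4:**
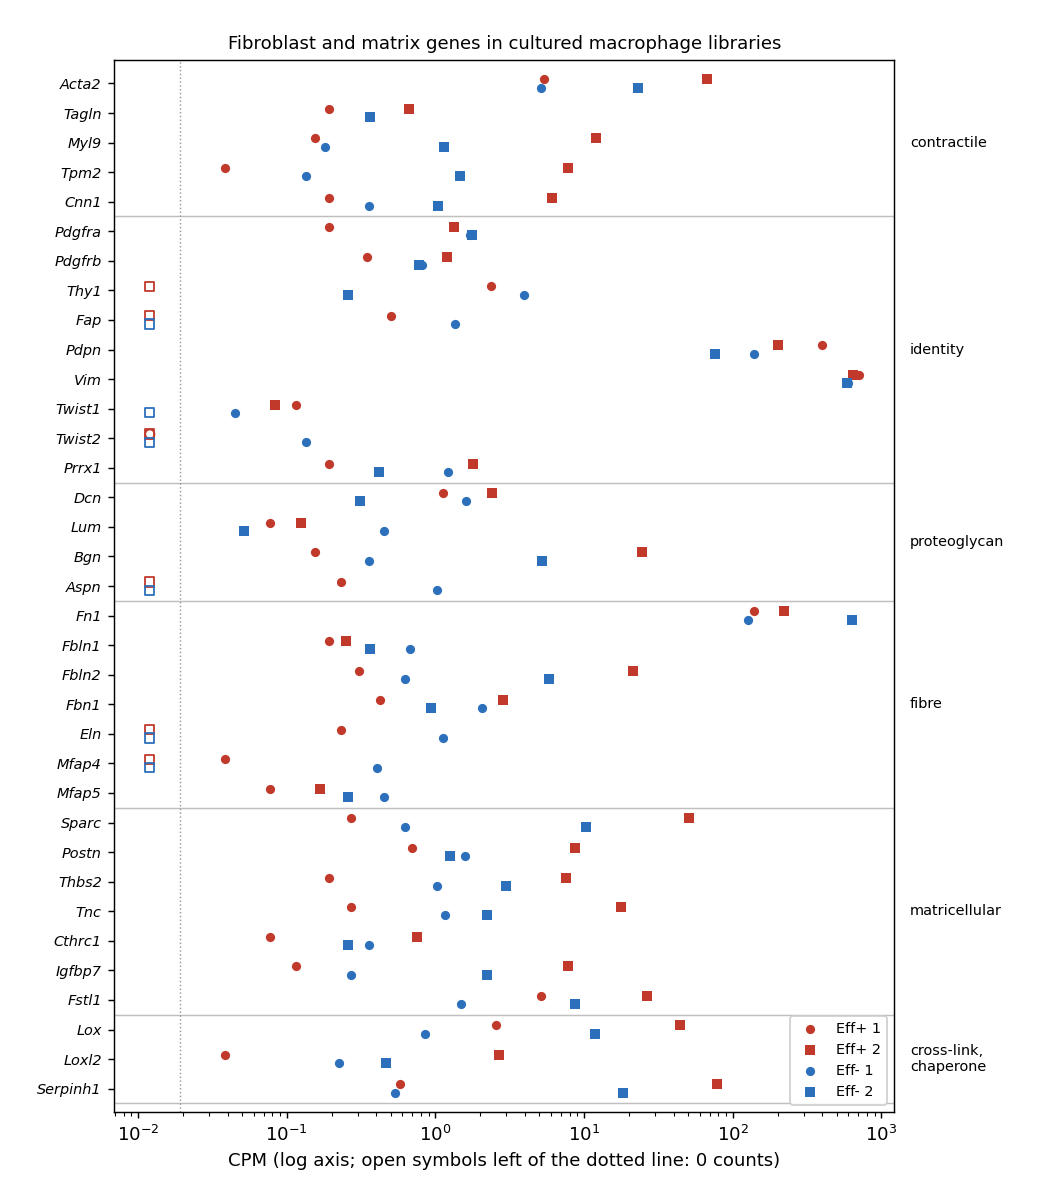
CPM of the 35 genes in the 4 culture libraries on a log axis, grouped by role, with open symbols left of the dotted line for 0 counts. The squares (libraries numbered 2) lie right of the circles for the contractile, most matricellular and chaperone genes, and Eff+ 2 is furthest right.

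Vim, Pdpn and Fn1 made up 73.0 to 98.2% of the members' counts in culture. Vim differed little, at 705.4 and 646.2 CPM in Eff+ and 593.3 and 584.7 CPM in Eff- (log2 fold change 0.20, SE 0.52). Pdpn was at 400.7 and 202.6 CPM in Eff+ against 137.9 and 75.4 CPM in Eff-, higher in both Eff+ libraries (1.5, SE 0.61, edgeR adjusted p = 1.0, unadjusted p = 0.057). Fn1 was at 139.4 and 220.8 CPM against 125.6 and 635.7 CPM, with the highest value in Eff- 2. Every Eff+ library lay above every Eff- library for 2 tested members (Pdpn and Vim) against 11.3% of all genes tested, and below for 1 (Pdgfra) against 9.42%.

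Within the libraries numbered 1 the median log2 ratio of Eff+ to Eff- was -0.24 over the 5 contractile genes and -0.64 over the 20 matrix genes without Fn1, after adding 0.5 CPM to each value. Within those numbered 2 it was 2.09 and 1.58. The signs of both medians therefore differed between the 2 pairs of libraries. Pdpn had log2 ratios of 1.54 and 1.42. Leaving out Eff+ library 2 turned the fitted log2 fold changes of Acta2, Sparc and Serpinh1 negative (-1.35, -4.33 and -4.04). The macrophage marker list took 1.90 and 5.55% of counts in Eff+ and 0.656 and 6.70% in Eff-, so it too was lower in the libraries numbered 1.

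**Figure D5:**
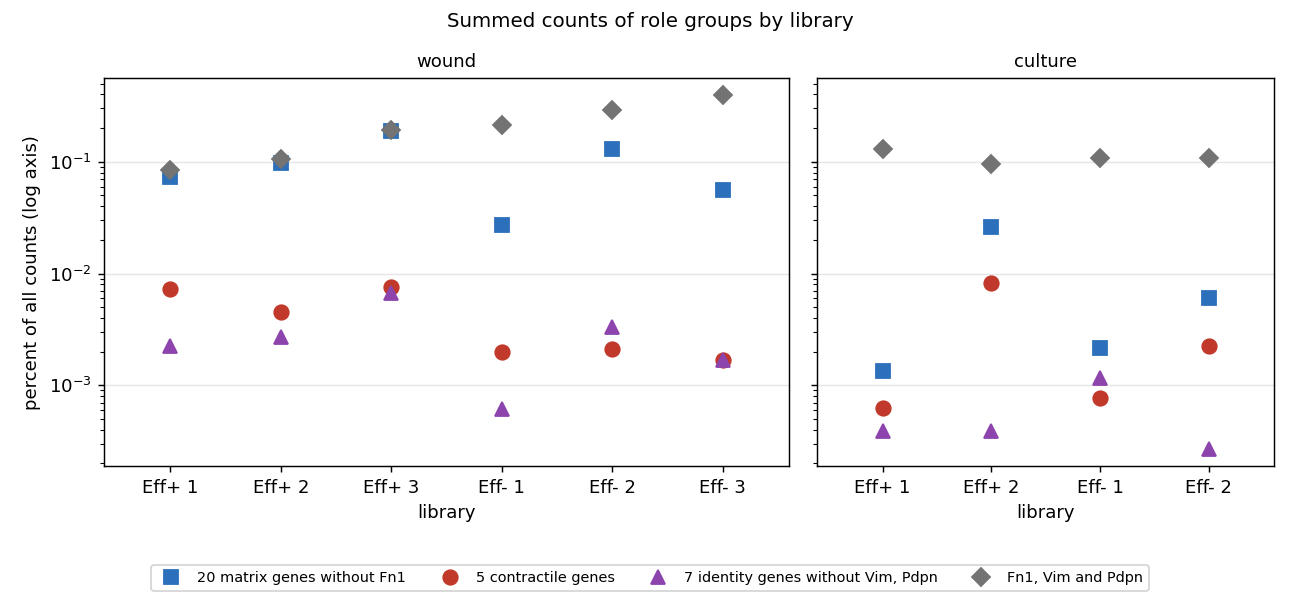
Percent of all counts (log axis) taken by the contractile genes, the matrix genes without Fn1, the identity genes without Vim and Pdpn, and Fn1, Vim and Pdpn together, in each wound and culture library. In the wound the contractile share separates Eff+ from Eff-, and in culture the contractile and matrix shares are highest in Eff+ 2.

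Whether the Eff+ to Eff- difference itself differed between wound and culture was tested over all 10 libraries, and edgeR called 0 of 35 members and 0.0% of 20270 genes. At an unadjusted p under 0.05 there were 4 of 35 members by edgeR, beside 11% of all genes, and 5 by DESeq2, beside 14%. After adjustment DESeq2 called 0 members and 3.93% of all genes. Pdpn had a difference (wound minus culture) of -2.22 on the log2 scale (SE 0.86, edgeR adjusted p = 0.39), being lower in Eff+ in the wound and higher in Eff+ in culture. Lum (2.61, SE 1.03, adjusted p = 0.40), Mfap4 (4.76, SE 1.85, adjusted p = 0.39) and Fbln1 (3.11, SE 1.27, adjusted p = 0.41) differed the other way, though each had at most 15 counts in any culture library. For Acta2 the difference was 0.94 (SE 1.15, adjusted p = 0.81). The members' median difference was 0.26, beside 0.32 over all genes.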

How the data were processed

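Messenger RNA of 10 mouse macrophage libraries was measured by RNA sequencing. The authors deposited unnormalised read counts for each gene. In the wound table the authors counted reads with featureCounts 1.6.0 on Ensembl annotation of GRCm39, with no strand, paired-end or multi-mapping option, per the file headers. Of wound genes with 1 to 20 counts, 71.6 to 76.4% had an even count (39.5 to 45.0% in culture). Trimmomatic 0.39 comes from the submitters' processing notes. Aligner: not given in the sources used here, nor is the culture counting command. No sample's labels matched 4 columns of the culture file, which were left out. Names matched 52081 of 55414 identifiers (99.91% of wound counts).

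Wound and culture were fitted separately by edgeR 4.0.16 (TMM, filterByExpr, quasi-likelihood test, no covariate), and the difference between models in a fit of all 10 libraries. P-values were adjusted by Benjamini-Hochberg over all genes and called under 0.05. CPM use TMM-scaled sizes, and RPKM divide them by merged exon length. Every test is two-sided. The procedure was tested on simulated counts. No replicate pair agreed within sampling noise (chi-square per degree of freedom 78.9 to 459.9). Alternatives were 3 other scalings, no filter, DESeq2 1.42.0, limma-voom (limma 3.58.1), a replicate block and libraries left out. The members, gene lists and the rule for named genes (any member called, fixed representatives of each role, up to 3 called genes in each direction per list, and the actin paralogs) were chosen with earlier results of these data known. A floor of 3 counts bounds a count of 0, for counting error only. It takes counts as independent, and most low wound counts were even, so the wound bound may be too low.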

Additional observations from a re-analysis of the deposited data

How the results depend on the processing

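EdgeR's single wound call among the members became 2 with relative log expression factors, 3 with library totals only, 3 without a filter, 2 with limma-voom and 10 with DESeq2, where the same fits called 10.6, 22.6, 7.04, 13.2 and 21.1% of all genes. It became 0 without both libraries numbered 2, where 0.0% of all genes were called. Leaving out each wound library in turn gave 0 to 2 calls in the wound, where those fits called 0.0 to 8.53% of all genes. The 2 calls came without Eff- library 2, beside 1.18% of all genes. For the difference between models the same omissions gave 0 calls, beside 0.0% of all genes. With no filter the difference gave 2 calls, beside 1.09% of all genes. The wound numbers were not taken as pairing the libraries, since no label ties them and same-numbered deviations correlated at 0.41, 0.017 and 0.234. Libraries 1 and 3 correlated best with their own number, a hint from the data of shared source, but Eff+ 2 correlated best with Eff- 3. In culture r was 0.739 for both numbers, a single value, because 2 libraries in a group deviate from their mean by equal and opposite amounts. No label there gives a shared source. With the replicate number as a block, 14 wound members were called (11 higher and 3 lower), beside 2985 of 14908 genes, 0 in culture and 1 for the difference. The 3 lower were Fn1, Vim and Pdpn (edgeR adjusted p = 0.0052, 0.021 and 0.014). Culture results rest on single libraries: over libraries left out, the members' median ranged from -1.54 to 1.35 (all libraries 1.43), and the difference's median from -0.22 to 3.26. Without culture Eff+ library 2 the culture log2 fold changes of Acta2, Sparc, Serpinh1, Lox, Tnc and Myl9 were -1.35, -4.33, -4.04, -1.32, -2.56 and -2.05. Over all libraries left out they reached 3.12, 5.64, 6.49, 5.07, 3.42 and 5.35. Without culture Eff- library 1 the Mfap4 difference was -0.87, and its highest value was 7.21. Eff+ over Eff- share ratios moved with the genes summed. The contractile ratio in the wound was 3.39 by percent of counts and 4.41 by CPM. Without Vim and Pdpn the identity ratio was 2.07 in the wound (0.487 with them) and 0.542 in culture (1.29). Without Fn1 the matrix ratio was 1.69 in the wound (0.885) and 3.38 in culture (0.798). The causes were not tested. With 2 libraries a group, differences in culture were limited by replicate spread.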
